A study of Rattus norvegicus with 17 samples.

Results

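The genes described here build, anchor and remodel the extracellular matrix. They were chosen by name, as every gene of the array whose symbol is that of a collagen chain or begins as an integrin, a laminin, a lysyl oxidase, a matrix metalloproteinase (Mmp), a tissue inhibitor of metalloproteinases (Timp) or an Adamts protease. Of the 13278 gene symbols on the Illumina RatRef-12 array, 92 met this rule (93 probes of 22226). They comprised 25 collagens, 17 integrins, 4 integrin-binding or integrin-like proteins, 5 laminins, 5 lysyl oxidases, 20 Mmp, 3 Timp and 13 Adamts and Adamts-like genes. A gene with several probes was represented by the brightest. RNA came from male rats aged 7 months on standard chow, either the normoglycaemic Brown-Norway (BN) strain or the Goto-Kakizaki (GK) strain, an inbred model of type 2 diabetes, both from colonies kept in Oxford. There were 17 arrays, 1 per RNA sample, with 5 BN and 4 GK arrays for adipose tissue and 5 BN and 3 GK arrays for liver. Both tissues were taken from the same 5 BN rats and from 3 of the GK rats. The strains differ across their whole genomes as well as in glycaemia, and the sources used here do not name the adipose depot.

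Fibrillar collagens (types I, III and V) carry the tensile load of connective tissue, and network collagens such as type IV join laminins in basement membranes. Integrins are paired alpha and beta chains through which a cell grips this matrix or, on leukocytes, another cell. Lysyl oxidases cross-link collagen and elastin, Mmp and Adamts proteases cut matrix proteins, and the Timp proteins block the metalloproteinases. In adipose tissue a basement membrane surrounds each adipocyte, whereas the hepatocytes of a healthy liver face a thin matrix made largely by stellate and endothelial cells.

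Values are normalized log2 intensities, on which a step of 1 is a doubling, and each gene was compared only with itself, since probes differ in brightness. A probe was taken as above background when its detection score exceeded 0.99. By that criterion 47 of the 92 genes were detected throughout at least 1 group, 29 were above background on no array, and the remaining genes passed on some arrays only. The probes for Mmp2 and Col6a2 were among those not above background in any group, so nothing can be read from them.

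Some arrays carried genes of another tissue. The array labelled GK liver replicate 2 had all 15 measured kidney markers above background, with a summed log2 value of 182.0 against 68.4 to 78.5 on the other 7 liver arrays, and a summed hepatocyte value of 79.0 (9 markers) against 132.5 to 138.7. Its library is named by that label throughout, and the liver is given with and without it. GK adipose replicate 2 had a summed value of 100.4 over 11 skeletal muscle markers, above the 46.8 to 79.8 of the BN adipose arrays, and 5 of 15 kidney markers above background (sum 83.2, against 68.8 to 73.6 and 2 to 3 markers in BN adipose tissue). GK adipose replicate 1 had 7 of 9 hepatocyte markers above background, against 1 to 4 in BN adipose tissue. Markers of the labelled tissue were otherwise present, with 7 or 8 of 8 adipocyte markers above background on every adipose array and 9 of 9 hepatocyte markers on every BN liver array. Between 7315 and 8237 probes were above background per adipose array and between 8004 and 9747 per liver array. Adipose tissue and liver were hybridized on different slides, 6 for each tissue, so slide and tissue cannot be told apart. Slides with both strains numbered 3 for adipose tissue and 2 for liver.

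**Figure D1:**
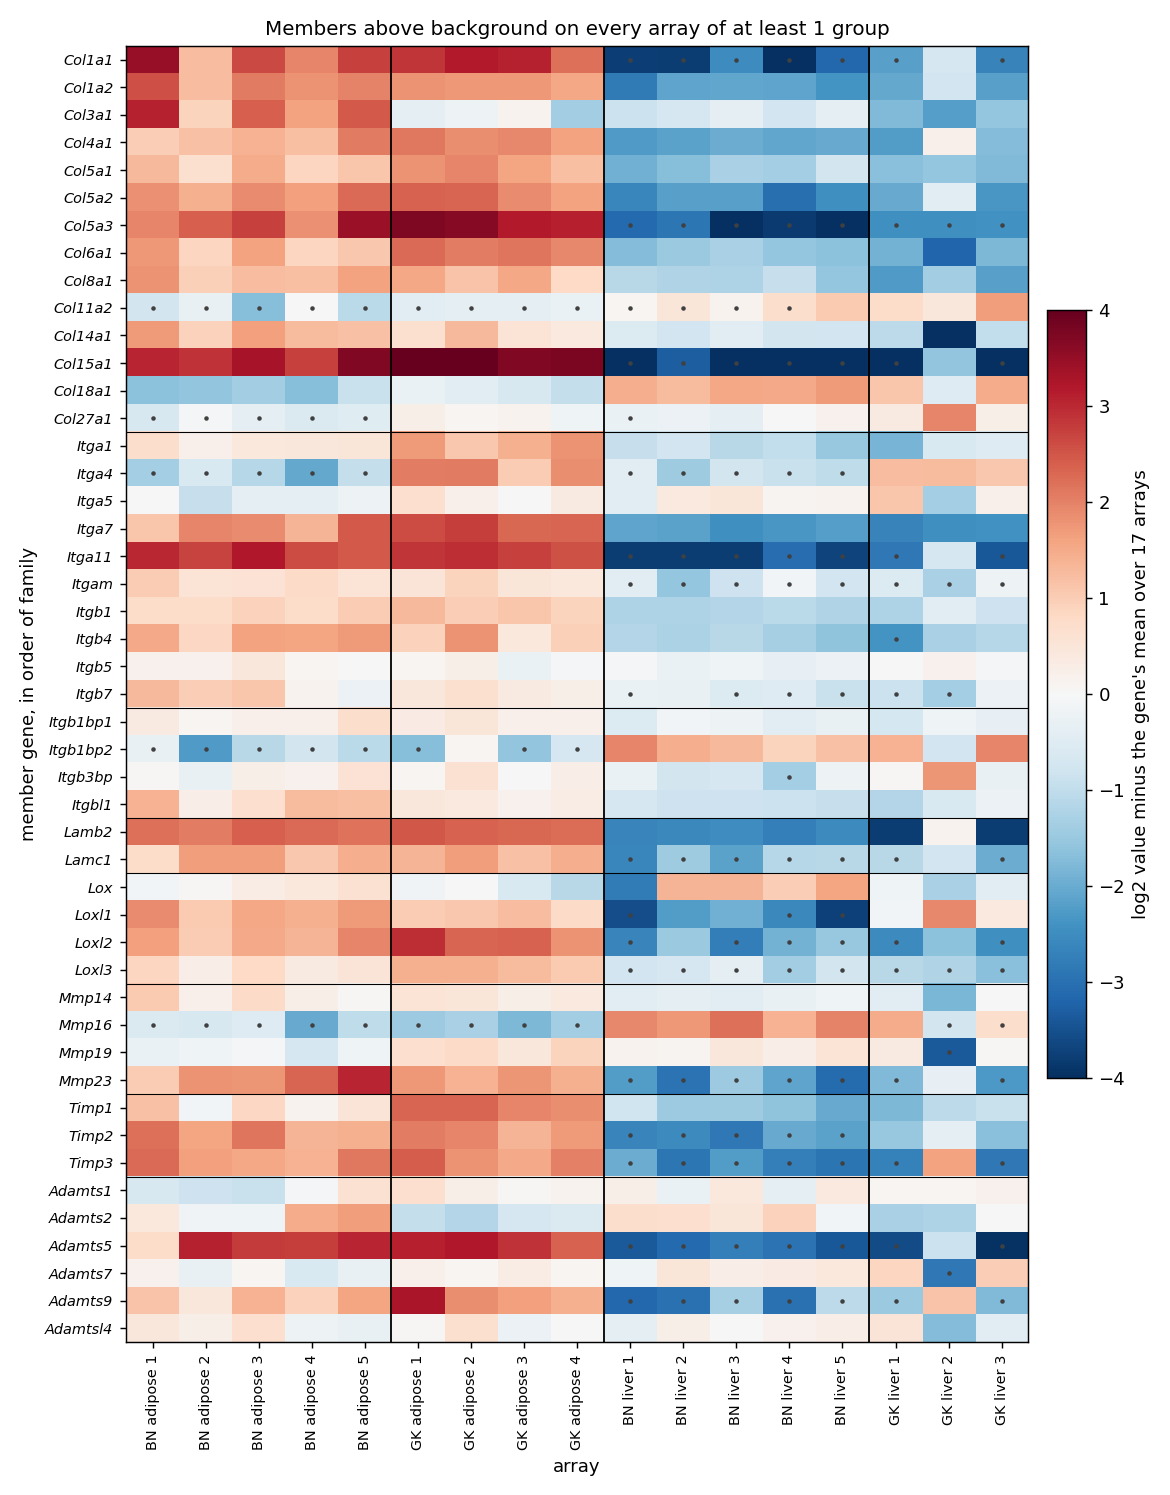
Normalized log2 value of the 47 genes detected throughout at least 1 group, shown as the difference from the gene's mean over the 17 arrays (colour, limits of 4 either way). Columns are arrays by group, rows are genes by family, and a dot marks a value not above background. Most rows divide by tissue, and single rows (Col3a1, Itga4, Loxl1) also divide by strain.

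The first question was whether matrix genes differed between GK and BN rats in adipose tissue. In total 4 genes were higher in GK rats, the integrin chains Itga4 and Itga1, the metalloproteinase Mmp19 and the inhibitor Timp1. Only 1 was lower, Col3a1, the chain of fibrillar collagen III. The 4 higher genes are 4.35% of the 92, against 1.03% of all probes, and the 1 lower gene is 1.09%, against 1.62% of all probes (limma with Benjamini-Hochberg adjustment over the 22226 probes, threshold 0.05). The median difference was 0.13 on the log2 scale over the 92 genes and 0.02 over all probes. The values of the 4 GK and the 5 BN arrays did not overlap for 9 genes (9.78%, against 8.18% of all probes). An unadjusted p under 0.05 was reached by 26 genes (28.3%), against 14.6% of all probes.

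Col3a1 was the only collagen past the threshold. Its values were 12.91, 10.74, 12.24, 11.46 and 12.28 in the 5 BN rats and 9.44, 9.63, 9.97 and 8.44 in the 4 GK rats. Every GK value lay below every BN value. The difference was -2.56 ± 0.45 on the log2 scale (SE, adjusted p = 0.0152 by limma), a 5.89-fold lower level in GK rats. On the 3 slides with both strains the differences were -3.47, -0.76 and -3.80. Collagen III fibres are co-assembled with collagen I, and the collagen I chains behaved differently. Col1a2 was 14.29 ± 0.48 (SD, n = 5) in BN and 14.04 ± 0.10 (n = 4) in GK rats, and Col1a1 was 9.23 ± 0.86 and 9.65 ± 0.44, with adjusted p of 0.713 and 0.709 by limma. Of the 25 collagens 13 had a difference above 0, with a median of 0.24 (log2).

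Some basement membrane and microfibril collagens had differences above 0. Col18a1, the source of endostatin, had a difference of 0.85 ± 0.22 (adjusted p = 0.0863), Col15a1, a basement membrane collagen, 0.78 ± 0.22 (adjusted p = 0.119) and Col6a1, a microfibril chain, 0.87 ± 0.23 (adjusted p = 0.0911, its GK and BN values not overlapping). None passed the threshold in the joint normalization of both tissues, but each did in 6 of 7 normalizations and variance models. With adipose tissue normalized alone, the adjusted p was 0.0132 for Col18a1, 0.0204 for Col15a1 and 0.0153 for Col6a1 by limma. Col6a1 was chosen for mention after its values were seen.

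Itga4 encodes the alpha 4 integrin chain, with which lymphocytes and monocytes bind fibronectin and the endothelial protein VCAM-1. Its values were 3.89, 4.64, 4.10, 3.18 and 4.30 in the BN rats, above background on 0 of 5 arrays, and 7.29, 7.33, 6.26 and 7.10 in the GK rats, above background on 4 of 4. The lowest GK value was thus far above the highest BN value. Since BN was not above background, the change is a lower bound, at least 3.13-fold higher in GK rats, with a fitted difference of 2.97 ± 0.32 and an adjusted p of 0.000798 (limma). It was the smallest adjusted p among the 92 genes in this tissue. The bound sets the GK mean against the mean, per BN array, of the lowest value among probes above background or the probe's own value if higher.

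Itga4 is found on leukocytes, so leukocyte markers are given beside it. Of 6 measured markers of T and NK cells 0 passed the threshold, but all 6 had a difference above 0 (median 0.61, log2). Their median differences were 0.29, 0.11 and 0.53 on the 3 shared slides. Their summed log2 value was 30.4 to 37.3 in BN and 36.8 to 44.2 in GK adipose tissue, the highest on GK replicate 2. Cd3e was above background on 0 of 5 BN and 3 of 4 GK arrays. Of 6 macrophage markers 0 passed and 1 had a difference above 0 (median -0.22, log2), with sums of 56.3 to 60.3 and 56.4 to 57.6. Their part in the result was not tested. In whole tissue, fewer cells of a type and less RNA per cell cannot be told apart.

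The reference sequence around the start of Itga4 is shown because the gene differed between the strains in both tissues. It is taken from the RefSeq table of the assembly GRCr8, which is a BN genome, at chr3:84569765-84570064 on the plus strand, from 250 bases before to 50 after the gene's start, read 5′ to 3′. Capitals in this and the later promoters mark the letters of the CCAAT box, the TATA box (TATAAA), the GC box (GGGCGG) and the AP-1 motif (TGANTCA) on either strand, without overlaps between them, and no capital stands in this window.
Itga4: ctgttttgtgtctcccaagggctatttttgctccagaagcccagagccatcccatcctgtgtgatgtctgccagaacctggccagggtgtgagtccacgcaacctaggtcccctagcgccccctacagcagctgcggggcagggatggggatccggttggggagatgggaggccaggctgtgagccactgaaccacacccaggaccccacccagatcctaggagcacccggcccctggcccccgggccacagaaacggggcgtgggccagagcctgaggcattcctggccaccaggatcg
Over the 33469 promoters of the table, 37.5% held the CCAAT box, 14.2% the TATA box, 33.1% the GC box and 7.33% the AP-1 motif. Of the 92 genes 71 had an entry, of which 18, 15, 35 and 8 held these letters. The array's probe sequences were not used here.

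Itga1, the collagen-binding alpha 1 chain, was 9.95, 9.45, 9.65, 9.69 and 9.73 in BN and 10.92, 10.30, 10.66 and 11.04 in GK rats. All GK values were above all BN values, by 1.04 ± 0.19 (2.05-fold, adjusted p = 0.0191, limma). Of 4 measured smooth muscle markers 0 passed, but all 4 had a difference above 0 (median 0.72), with sums of 23.9 to 28.4 in BN and 27.3 to 31.0 in GK adipose tissue and median differences of 0.65, 1.09 and 0.74 on the 3 shared slides. On each adipose array only 2 of these 4 markers were above background. The part of the smooth muscle markers in the adipose differences was not tested. The Itga1 call depended on single arrays, with an adjusted p of 0.051 without BN adipose replicate 2, 0.0514 without BN replicate 3, 0.0719 without GK replicate 1 and 0.0623 without GK replicate 4. Itga5, the alpha 5 chain of the fibronectin receptor, also did not overlap (7.30 ± 0.34 in BN and 7.98 ± 0.29 in GK rats) but did not pass (adjusted p = 0.174). Itgb1, the beta chain that pairs with all 3 of these alpha chains, differed by 0.25 ± 0.15 (adjusted p = 0.515). It was named for that pairing after its values were seen. Itgad, a leukocyte alpha chain, had a difference of 2.13 ± 0.59, but was above background on only 1 of 4 GK and 0 of 5 BN arrays.

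Timp1 binds and inhibits most metalloproteinases. It was 10.44, 9.15, 10.08, 9.39 and 9.75 in the BN rats and 11.56, 11.57, 11.20 and 11.12 in the GK rats. The strains did not overlap, and the difference was 1.60 ± 0.27 (3.04-fold, adjusted p = 0.0116, limma). The other inhibitors showed differences of 0.01 ± 0.24 (Timp2) and 0.15 ± 0.25 (Timp3), with adjusted p of 0.989 and 0.833 (limma). The promoter of Timp1 is shown as that of the inhibitor that differed. It lies at chrX:3771073-3771372 of GRCr8 on the minus strand, and its capitals are the reverse complement of GGGCGG, starting at position -142 from the gene's start.
Timp1: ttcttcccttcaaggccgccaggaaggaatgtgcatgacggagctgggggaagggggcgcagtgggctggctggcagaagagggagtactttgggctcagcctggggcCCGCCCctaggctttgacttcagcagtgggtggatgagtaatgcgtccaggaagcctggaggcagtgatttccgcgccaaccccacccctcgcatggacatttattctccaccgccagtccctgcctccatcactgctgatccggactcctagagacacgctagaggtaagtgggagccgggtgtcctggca
Mmp19, a protease of basement membrane proteins, was 6.63, 6.73, 6.83, 6.22 and 6.72 in BN and 7.57, 7.65, 7.35 and 7.80 in GK rats. Again no value overlapped, with a difference of 0.97 ± 0.18 (1.95-fold, adjusted p = 0.0179, limma). It did not pass without GK adipose replicate 1 (adjusted p = 0.0579), 2 (0.0638) or 4 (0.062). None of the other 19 Mmp genes passed, and 14 of the 20 were above background on 0 of 5 BN arrays. Mmp14, the membrane-bound activator of Mmp2, was close in the strains (11.61 ± 0.43 in BN and 11.56 ± 0.13 in GK rats).

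The cross-linking enzymes did not pass in this fit. Loxl2 was 8.57 ± 0.35 in BN and 9.44 ± 0.47 in GK rats, and Loxl3 was 6.61 ± 0.27 and 7.33 ± 0.18, without overlap. Their adjusted p by limma was 0.142 and 0.0816 in the main fit, and 0.0339 and 0.0165 with adipose tissue normalized alone. Loxl1 and Lox lay the other way, at -0.51 ± 0.20 and -0.72 ± 0.26 (adjusted p = 0.268 and 0.227). Adamts2, the procollagen N-proteinase, was 8.27 ± 0.88 in BN and 6.77 ± 0.26 in GK rats, again without overlap (adjusted p = 0.105, and 0.0254 with the tissue normalized alone). The laminin chains Lamb2 and Lamc1 were similar in the strains, with Lamb2 at 11.95 ± 0.12 and 12.08 ± 0.10. Family medians of the difference were 0.15 (5 laminins), 0.02 (5 lysyl oxidases), 0.26 (13 Adamts and Adamts-like genes) and 0.04 (4 integrin-binding and integrin-like proteins) on the log2 scale, none with a called gene.

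Across the 7 normalizations and variance models, 16 genes passed in adipose tissue under at least 1, and the 5 named above passed under every one. When GK adipose replicates 1 and 2 were left out, the arrays with hepatocyte and muscle genes, only Itga4 passed, while Col3a1 kept a difference of -2.72 (adjusted p = 0.133), Timp1 1.40 (adjusted p = 0.188), Itga1 1.15 (adjusted p = 0.0764) and Mmp19 0.95 (adjusted p = 0.207). This leaves 2 GK arrays against 5 BN arrays. On the 3 slides with both strains the differences were 3.40, 1.63 and 3.00 for Itga4, 1.13, 2.05 and 1.04 for Timp1, 0.97, 1.21 and 1.39 for Itga1 and 0.94, 0.62 and 0.97 for Mmp19. Their sign was fixed beforehand, since GK and BN values of these genes did not overlap. With slide as a fixed block, a fit that kept only the slides with both strains, none of the 5 passed (adjusted p between 0.179 and 0.3 by limma). In that fit 20 of 22226 probes passed. With slide as a random block all 5 genes passed.

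**Figure D2:**
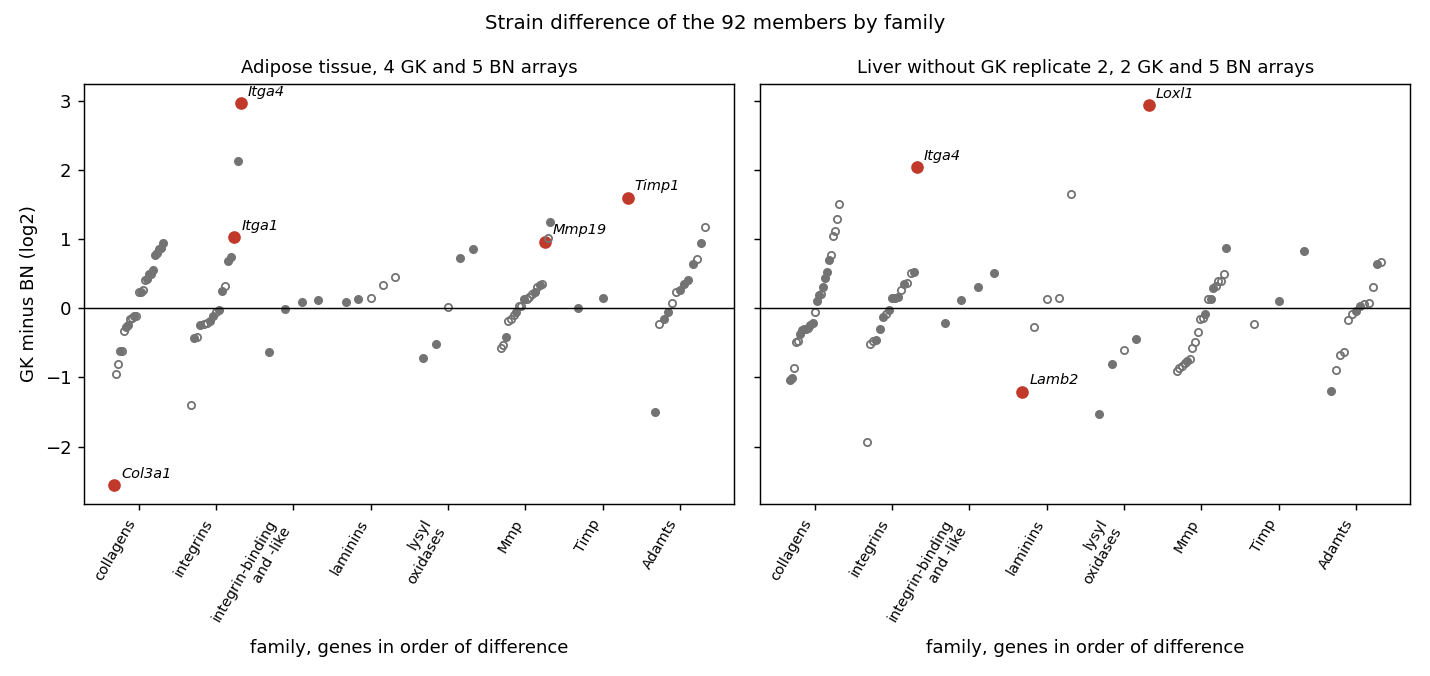
Difference GK minus BN (log2) of the 92 genes by family, in adipose tissue (4 GK and 5 BN arrays) and in liver without GK replicate 2 (2 GK and 5 BN arrays). Large red points passed the limma threshold and are named, and open points were not above background in either strain. Itga4 stands at 2.97 and 2.05, and Loxl1 is high in liver only.

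Genes that work with these families were examined as lists. Of 32 measured matrix glycoproteins and proteoglycans, 0 were higher and 2 lower in GK adipose tissue. Efemp1, a fibulin of elastic fibres, was above background on 5 of 5 BN and 0 of 4 GK arrays (8.79 ± 0.45 and 5.23 ± 0.27), at least 10.5-fold lower in GK rats (adjusted p = 3.6e-05, limma). Vwf, the endothelial von Willebrand factor, was 12.55 ± 0.24 in BN and 10.61 ± 0.33 in GK rats (-1.94 ± 0.20, adjusted p = 0.000619). Of 6 endothelial markers 5 had a difference above 0 (median 0.19, log2), with sums of 57.1 to 59.5 in BN and 56.7 to 60.6 in GK rats. Among them Vwf passed the threshold as lower and Cdh5 as higher. Of 17 plasminogen system and other protease genes 2 were lower, cathepsin S (Ctss, 11.23 ± 0.29 and 9.93 ± 0.13, adjusted p = 0.00382) and Adam10, which was not above background in either strain. Of 21 fibrosis signalling genes 1 was higher, the lectin galectin-3 (Lgals3, 0.94 ± 0.19, adjusted p = 0.0285). None of 17 collagen-processing and 24 focal adhesion genes passed. Their smallest p values belonged to P3h1, a prolyl hydroxylase (0.51 ± 0.15, adjusted p = 0.129), and Cd47, an integrin-associated protein (-0.60 ± 0.18, adjusted p = 0.142). Of 7 fibroblast and stromal markers outside the families 0 passed, with sums of 68.1 to 71.8 in BN and 68.1 to 73.2 in GK rats.

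The same question was asked of the liver. Itga4 and the lysyl oxidase Loxl1 were higher in GK rats, both with and without the array labelled GK liver replicate 2. With all 3 GK arrays, 2 of the 92 genes were higher (2.17%, against 0.265% of all probes) and 1 lower (1.09%, against 0.405%), and 12 genes did not overlap (13.0%, against 9.07%). Without GK liver replicate 2, 2 were higher (against 0.526% of all probes) and 1 lower (against 0.697%), and 17 did not overlap (18.5%, against 17.3%). The lower gene was Itgal with the array and Lamb2 without it. Median differences over the 92 genes were -0.05 in both (log2), against -0.01 and -0.04 over all probes. A two-sided exact permutation test of a single gene, unadjusted, cannot go below p = 0.0952 with 2 against 5 rats, nor below 0.0357 with 3 against 5, so these calls rest on the spread that limma shares across probes.

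Itga4 was 4.82, 3.81, 4.51, 4.34 and 4.23 in BN liver, above background on 0 of 5 arrays, and 6.47, 6.51 and 6.31 in GK liver, above background on 3 of 3. The 3 GK values lay close together, that of replicate 2 (6.51) included. GK liver was at least 2.58-fold higher, and at least 2.51-fold without replicate 2, with fitted differences of 2.09 ± 0.28 and 2.05 ± 0.30 (adjusted p = 0.0121 and 0.0213, limma). On the slides that held both strains the differences were 2.70 (GK replicate 2) and 1.80 (GK replicate 3), and with slide as a fixed block the adjusted p was 0.898 (limma). That fit kept only these slides and passed 0 of 22226 probes, so it cannot decide on a single gene. With all arrays the call was lost without BN liver replicate 5 (adjusted p = 0.0508) or GK liver replicate 1 (adjusted p = 0.0548). Without replicate 2 it was lost on leaving out BN replicate 3 (adjusted p = 0.0579), 4 (0.0654) or 5 (0.0632), or GK replicate 1 (0.169). Of the T and NK cell markers 0 of 6 passed, with sums of 30.0 to 34.9 in BN liver and 31.5 to 37.0 in GK liver, and their part was not tested.

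**Figure D3:**
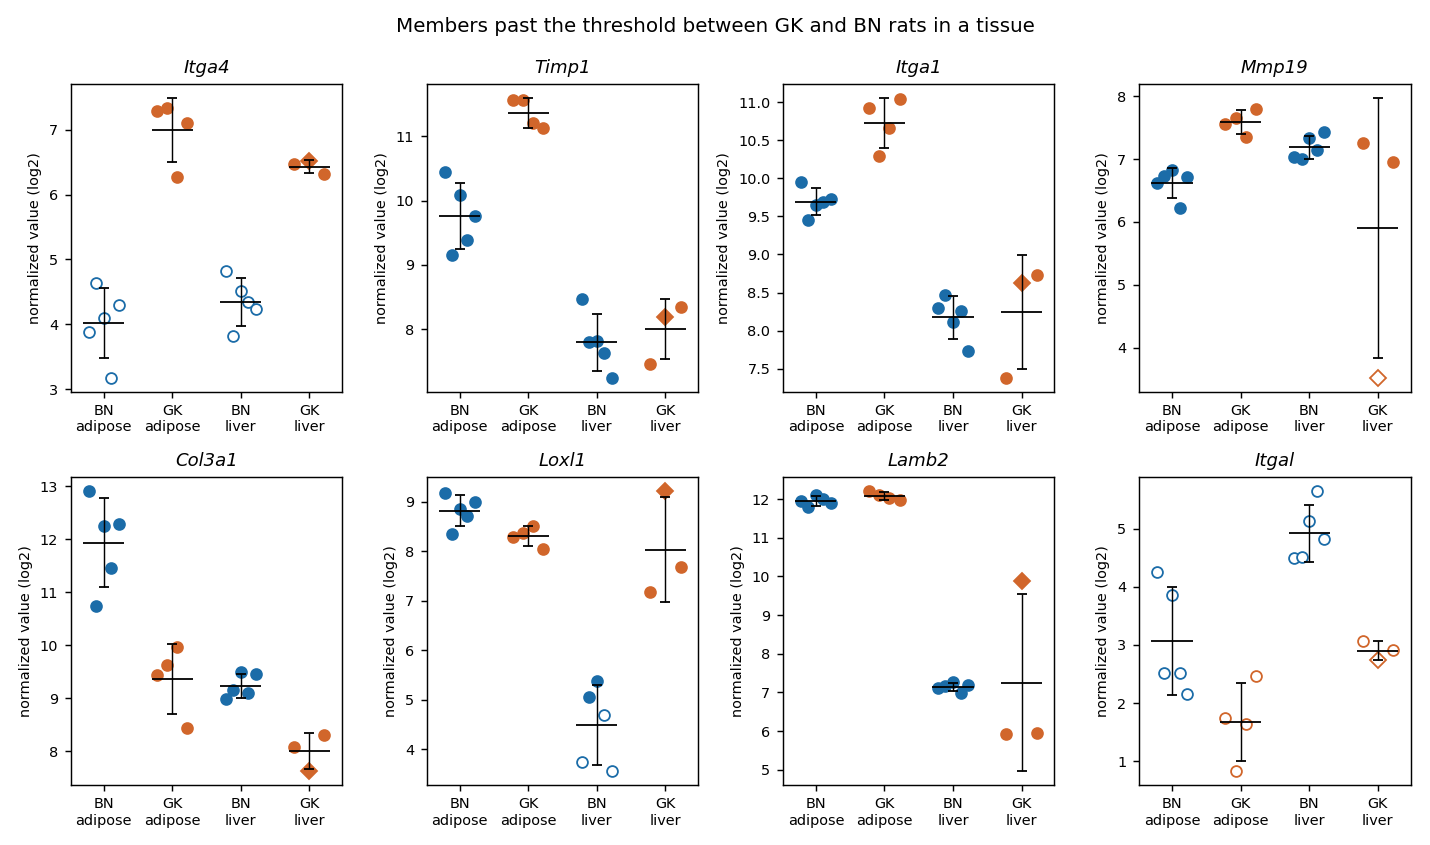
Normalized log2 value per array of the 8 genes past the threshold between strains in a tissue, in the 4 groups. Filled points were above background and open points were not, the diamond is GK liver replicate 2, and bars give mean and SD. GK and BN adipose values do not overlap for Itga4, Timp1, Itga1, Mmp19 and Col3a1, and the Itgal points are open throughout.

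Loxl1 belongs to the lysyl oxidases and is known for its role in elastic fibre upkeep. In BN liver it was 3.75, 5.06, 5.38, 4.70 and 3.56, above background on 2 of 5 arrays only, and in GK liver 7.18, 9.22 and 7.69. Its highest value was that of GK liver replicate 2, and the other 2 GK values also lay above every BN value. The difference was 3.54 ± 0.57 with replicate 2 and 2.94 ± 0.53 without it (adjusted p = 0.0347 and 0.0471, limma). Over the alternatives run its size lay between 1.78 and 3.96 with replicate 2, and between 1.37 and 3.20 without it. Adjusted p ranged from 0.0543 to 0.0968 on leaving out any 1 array other than GK replicate 2, so the call rested on each of them. Within slides its differences were 4.16 (GK replicate 2) and 2.31 (GK replicate 3). With slide as a fixed block, where 0 of 22226 probes passed, the adjusted p of Loxl1 was 0.898 (limma). Without replicate 2 it passed only on leaving out BN liver replicate 3, and was otherwise between 0.0733 and 0.219. The promoter of Loxl1, the gene with the largest liver difference, lies at chr8:67612175-67612474 of GRCr8 on the minus strand and holds none of the 4 motifs.
Loxl1: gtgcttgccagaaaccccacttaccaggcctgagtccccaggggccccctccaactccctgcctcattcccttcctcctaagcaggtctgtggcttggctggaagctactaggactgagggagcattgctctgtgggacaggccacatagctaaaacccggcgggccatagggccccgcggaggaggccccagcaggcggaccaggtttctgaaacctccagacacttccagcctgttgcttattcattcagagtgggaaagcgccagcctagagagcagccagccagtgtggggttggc
The other lysyl oxidases did not pass in liver. Lox itself was 7.25 in BN liver replicate 1 but 11.40, 11.41, 11.01 and 11.61 in the other BN rats, and 9.85, 8.74 and 9.60 in GK rats. The low BN array lay below the GK range and the other 4 above it.

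Lamb2, the beta 2 chain of basement membrane laminins, was tightly spread in BN liver (7.10, 7.16, 7.26, 6.99 and 7.20). It was 5.93 and 5.94 in GK replicates 1 and 3, and 9.89 in replicate 2. The former 2 arrays were thus below every BN array and the latter above. Without replicate 2 the difference was -1.20 ± 0.21 (2.30-fold lower, adjusted p = 0.0425, limma), and with it 0.11 ± 0.82 (adjusted p = 0.968). The call was lost on leaving out any 1 further array (adjusted p between 0.057 and 0.187). Itgal, the alpha chain of the leukocyte integrin LFA-1, was 4.49, 4.51, 5.13, 5.65 and 4.83 in BN and 3.07, 2.73 and 2.91 in GK liver (adjusted p = 0.0295, and 0.0503 without replicate 2). No array of either strain was above background, so no fold is given.

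Col3a1 in liver was 8.98, 9.17, 9.49, 9.09 and 9.45 in BN and 8.09, 7.63 and 8.30 in GK rats. The GK values were all below the BN values, but the difference (-1.23 ± 0.26, and -1.04 ± 0.25 without replicate 2) did not pass (adjusted p = 0.0937 and 0.113, limma). It passed in 5 of 7 normalizations and variance models with replicate 2 and in 4 of 7 without. For the genes called in adipose tissue other than Itga4, liver differences without replicate 2 were -0.12 ± 0.39 (Itga1), -0.09 ± 0.24 (Mmp19) and 0.11 ± 0.38 (Timp1). Adamts2 was -1.19 ± 0.41 (adjusted p = 0.283), and Itgb3bp and Itgbl1, an integrin-binding and an integrin-like protein, were 0.51 ± 0.35 and 0.11 ± 0.29.

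Among the partner lists 0 genes passed in liver with all arrays. Cd47 had an adjusted p of 0.0501. Without GK liver replicate 2, dermatopontin (Dpt), which binds decorin and collagen, was 10.02 ± 0.10 in BN and 12.42 ± 0.03 in GK liver (2.39 ± 0.21, adjusted p = 0.00234), and was the 1 gene of 7 stromal markers that passed. It was also the only 1 of the 7 with a difference above 0, and their median difference was -0.46 (log2). Alpha 2 macroglobulin (A2m), a broad protease inhibitor, was above background on 1 of 5 BN and 2 of 2 GK arrays (4.33 ± 0.78, adjusted p = 0.0478), and Cd47 was lower (-1.61 ± 0.29, adjusted p = 0.0473). Of 5 stellate cell markers 0 passed, with sums of 31.3 to 32.3 in BN and of 30.2 and 31.5 in GK replicates 1 and 3, and Rgs5 and Hand2 were above background on no array.

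Whether a strain difference itself differed between the tissues was tested as liver minus adipose tissue, in a model of the 17 arrays in which rat was a random block. Loxl1 alone passed (1.09% of the 92, against 0.553% of all probes in this direction), while 0 were called in the other direction (against 0.508%). An unadjusted p under 0.05 was reached by 21 genes (22.8%), against 12.7% of all probes. For Loxl1 the difference of differences was 4.05 ± 0.60 (adjusted p = 0.00223, limma). In adipose tissue its values were 9.18, 8.35, 8.85, 8.72 and 9.01 in BN and 8.30, 8.38, 8.52 and 8.05 in GK rats. The strains overlapped in adipose tissue, and in liver every GK value was above every BN value. Without GK liver replicate 2 the Loxl1 difference of differences was 3.45 (adjusted p = 0.00242), when Lamb2 was called as well. Over the alternatives run that of Loxl1 lay between 2.21 and 4.47, with adjusted p between 0.000227 and 0.00733 (limma). For Itga4 the difference of differences was -0.88 ± 0.43 (adjusted p = 0.407), for Col3a1 1.33 ± 0.56 (0.334), for Timp1 -1.40 ± 0.43 (0.170), for Itga1 -0.96 ± 0.39 (0.315) and for Mmp19 -2.24 ± 0.76 (0.227). Without GK liver replicate 2 the differences of differences were -0.93 (Itga4), 1.52 (Col3a1), -1.49 (Timp1), -1.16 (Itga1) and -1.05 ± 0.27 (Mmp19), with adjusted p of 0.413, 0.272, 0.148, 0.201 and 0.0659 by limma. That of Mmp19 thus moved from -2.24 to -1.05 with this 1 array. Those adipose differences are therefore not shown to differ from the ones in liver. Among partner genes Tgfb2, a fibrogenic growth factor, had a difference of differences of 1.99 ± 0.39 (adjusted p = 0.0195), being -0.71 ± 0.24 in adipose tissue and 1.28 ± 0.32 in liver. Adam10 had 1.61 ± 0.29 (adjusted p = 0.0112) without being above background in any group. Both estimates, and the Tgfb2 difference in liver, include GK liver replicate 2. Values without that array are not given here for these partner genes.

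The tissue comparison asked where each gene was higher within the 5 BN rats. Adipose tissue had the higher level of 41 of the 92 genes (44.6%, against 18.3% of all probes) and liver of 9 (9.78%, against 20.7%), by limma with the rat as a block. The median over the 92 genes was -0.61 (log2, liver minus adipose tissue) and over all probes 0.00. Of the 41 adipose genes 40 had that sign in all 5 rats, and 38 had it in both GK rats other than that of liver replicate 2. A difference of over 4-fold was fitted for 23 of the 41 and 4 of the 9. Of the 41, 17 were not above background in BN liver and 3 in neither tissue. Members above background numbered 43 to 46 on the BN adipose arrays and 29 to 35 on the BN liver arrays.

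Among collagens 13 of 25 were higher in adipose tissue and 3 in liver, of which Col11a2 and Col13a1 were above background on only 1 of 5 BN liver arrays. Col15a1 was 10.83, 10.67, 11.08, 10.50 and 11.48 in adipose tissue and 3.36, 4.48, 3.12, 3.69 and 3.04 in liver of the same rats, where it was above background on 0 of 5 arrays. It was at least 57.6-fold higher in adipose tissue (adjusted p = 4.56e-06, limma). Fibrillar chains were also higher there, Col1a1 at least 17.9-fold, Col5a3 at least 8.66-fold, Col5a2 19.5-fold, Col1a2 18.9-fold and Col3a1 6.45-fold. The promoter of Col1a2 is shown as that of a fibrillar chain, at chr4:33518307-33518606 of GRCr8 on the plus strand. Its capitals are the reverse complement of CCAAT, starting at position -221 from the gene's start, and the TATA box at -170.
Col1a2: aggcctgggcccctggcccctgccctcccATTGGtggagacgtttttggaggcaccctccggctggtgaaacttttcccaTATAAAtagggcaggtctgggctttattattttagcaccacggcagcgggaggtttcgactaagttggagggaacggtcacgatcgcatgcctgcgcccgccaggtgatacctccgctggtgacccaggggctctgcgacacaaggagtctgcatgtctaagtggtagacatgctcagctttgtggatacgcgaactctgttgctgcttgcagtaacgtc
Col18a1 lay the other way. It was 8.95, 9.0, 9.20, 8.87 and 9.69 in adipose tissue and 12.03, 11.85, 12.11, 12.09 and 12.28 in liver, a 7.63-fold higher level in liver without any overlap (adjusted p = 1.59e-05).

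Receptors and basement membrane chains followed the same order. Of 17 integrins 8 were higher in adipose tissue, of which Itga2 was not above background in either tissue, and 1 in liver. Itga11, a receptor for fibrillar collagen, was 8.41 to 9.17 in adipose tissue and 2.15 to 2.93 in liver, where it was not above background (at least 12.9-fold, adjusted p = 1.57e-06, limma). Itga1 was 2.86-fold higher in adipose tissue, while Itga4 and Itga5 did not pass (0.32 ± 0.31 and 0.51 ± 0.27). The 1 integrin called higher in liver, Itgal, was not above background. Lamb2 was 28.1-fold higher in adipose tissue and 3 of 5 laminins passed in that direction, of which Lamc3 was not above background in either tissue. Itgb1bp2, a chaperone-like partner of beta 1 integrin known from muscle as melusin, was above background in liver only and at least 3.74-fold higher there. Of the 4 integrin-binding and integrin-like genes, the other 3 were higher in adipose tissue, Itgbl1 by 3.42-fold.

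Remodelling enzymes and their inhibitors split further. All 3 Timp genes were higher in adipose tissue, Timp2 at least 17.7-fold, Timp3 at least 11.9-fold and Timp1 3.92-fold. Of 5 lysyl oxidases 3 were higher there, Loxl1 by 20.1-fold with 2 of 5 liver arrays above background, Loxl2 by 11.7-fold with 1 of 5, and Loxl3 at least 2.41-fold. Loxl4 was at least 1.34-fold higher in liver (adjusted p = 0.0018, limma). It was above background on 3 of 5 BN liver and 0 of 5 BN adipose arrays. Of 20 Mmp genes 4 were higher in adipose tissue, led by Mmp23 (at least 10.9-fold), and 3 in liver, of which the Mmp2 probe was not above background in either tissue. Mmp16, a membrane-type protease, was above background on 5 of 5 BN liver and 0 of 5 BN adipose arrays (at least 1.89-fold). Mmp19 was 0.56 ± 0.18 higher in liver of BN rats (adjusted p = 0.0426) but lower in liver than adipose tissue in both other GK rats (-0.40 and -0.85). Its call was lost without any single BN rat (adjusted p between 0.0597 and 0.123). Of 13 Adamts genes 4 were higher in adipose tissue, of which Adamts4 was not above background in either BN tissue, and 0 in liver. Adamts5, an aggrecan and versican protease, was 8.85 in BN adipose replicate 1 and 10.89 to 11.21 in the others, and at least 43.3-fold higher than in liver.

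**Figure D4:**
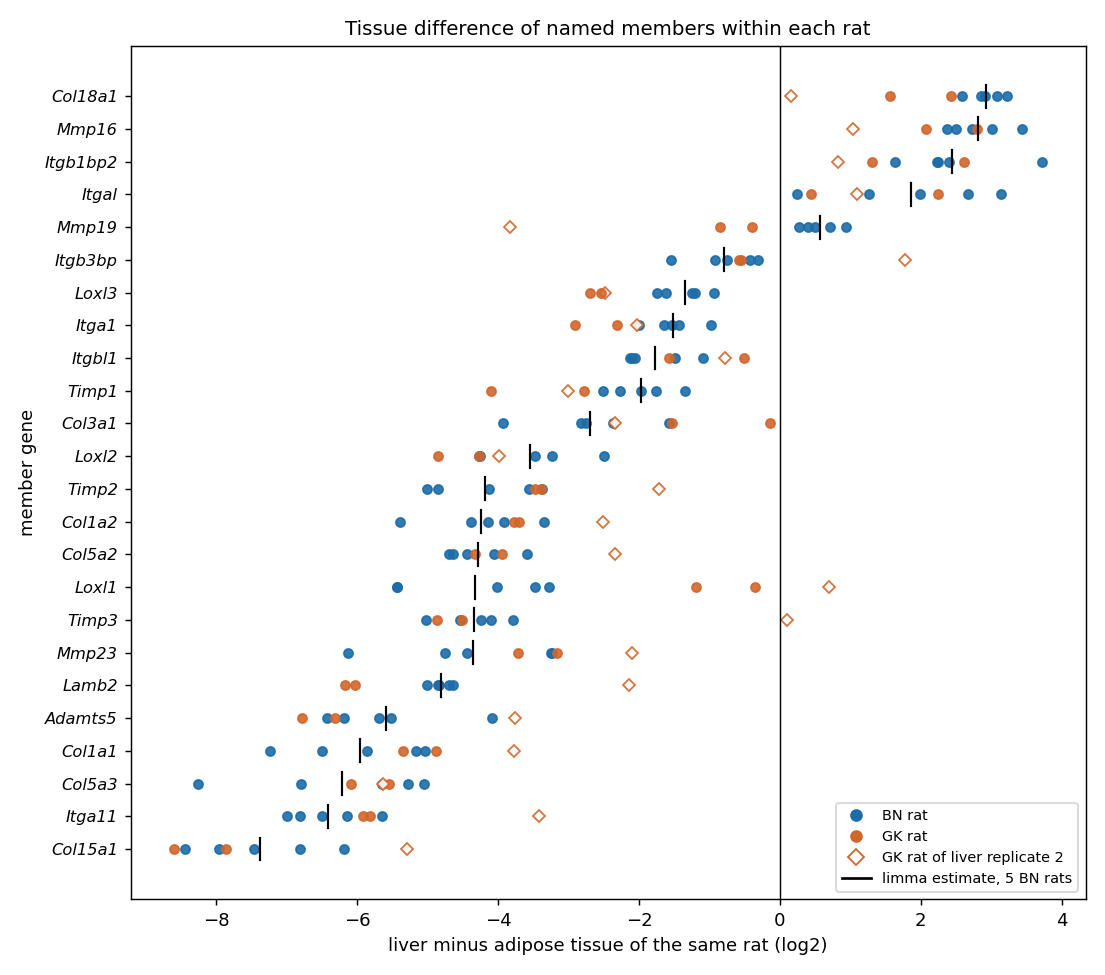
Liver minus adipose tissue of the same rat (log2) for the 24 named genes past the threshold in BN rats. Blue points are the 5 BN rats, orange points 2 GK rats, open diamonds the GK rat of liver replicate 2, and the black tick is the limma estimate. The diamonds for Timp3 and Lamb2 stand well to the right of the other points. For Loxl1 every GK point lies to the right of every BN point, the diamond furthest. Itgal was not above background in either tissue.

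Markers of the cells that make matrix moved with these genes. All 7 measured fibroblast and stromal markers and all 6 endothelial markers were higher in BN adipose tissue than in BN liver, with sums of 68.1 to 71.8 against 41.2 to 45.9 and of 57.1 to 59.5 against 43.0 to 45.2. Their part in the tissue difference was not tested. Partner genes went both ways. Of 32 glycoproteins and proteoglycans 23 were higher in adipose tissue and 6 in liver, with periostin (Postn) at least 79.5-fold higher in adipose tissue and vitronectin (Vtn) 4.30 ± 0.16 (log2) higher in liver. Of 17 plasminogen system and other proteases 11 were higher in adipose tissue, including Fap (at least 8.68-fold), and 5 in liver, including plasminogen (Plg, 9.43 ± 0.19). Of 17 collagen-processing genes 7 and 5 were higher in adipose tissue and liver. Bmp1, which removes the C-terminal propeptide of procollagens, was 3.27 ± 0.24 higher in liver. Of 21 fibrosis signalling genes 13 and 1, and of 24 focal adhesion genes 8 and 8, were higher in adipose tissue and liver.

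The array labelled GK liver replicate 2 differed from the other liver arrays in many of the 92 genes. Against the other 7 liver arrays, 20 of the 92 genes lay more than 1 log2 unit above the highest and 9 more than 1 below the lowest. Shares over all probes were not counted, so it is not known whether these genes stood apart more than others. The array had 46 of the 92 genes above background, against 29 to 35 in BN liver, 37 in GK replicate 1 and 34 in GK replicate 3. Being 1 array, it allows no test, and the genes named next were chosen after their values were seen. Itgb6, an epithelial integrin chain, was 10.04 against 3.53 to 4.54. Lama1, an epithelial laminin chain, was 6.71 against 0.89 to 2.83, and Col4a3, a chain of the glomerular basement membrane, was 8.75 against 3.39 to 5.25. None of these was above background on any of the other 7 arrays. Timp3 was 8.47 against 3.92 to 4.87 and Lamb2 9.89 against 5.93 to 7.26. Lower were Col14a1 (6.40 against 9.72 to 10.34), Mmp19 (3.53 against 6.95 to 7.42) and Adamts7 (4.46 against 7.17 to 8.32). Itga4 and Col3a1 were not among the 29.

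**Figure D5:**
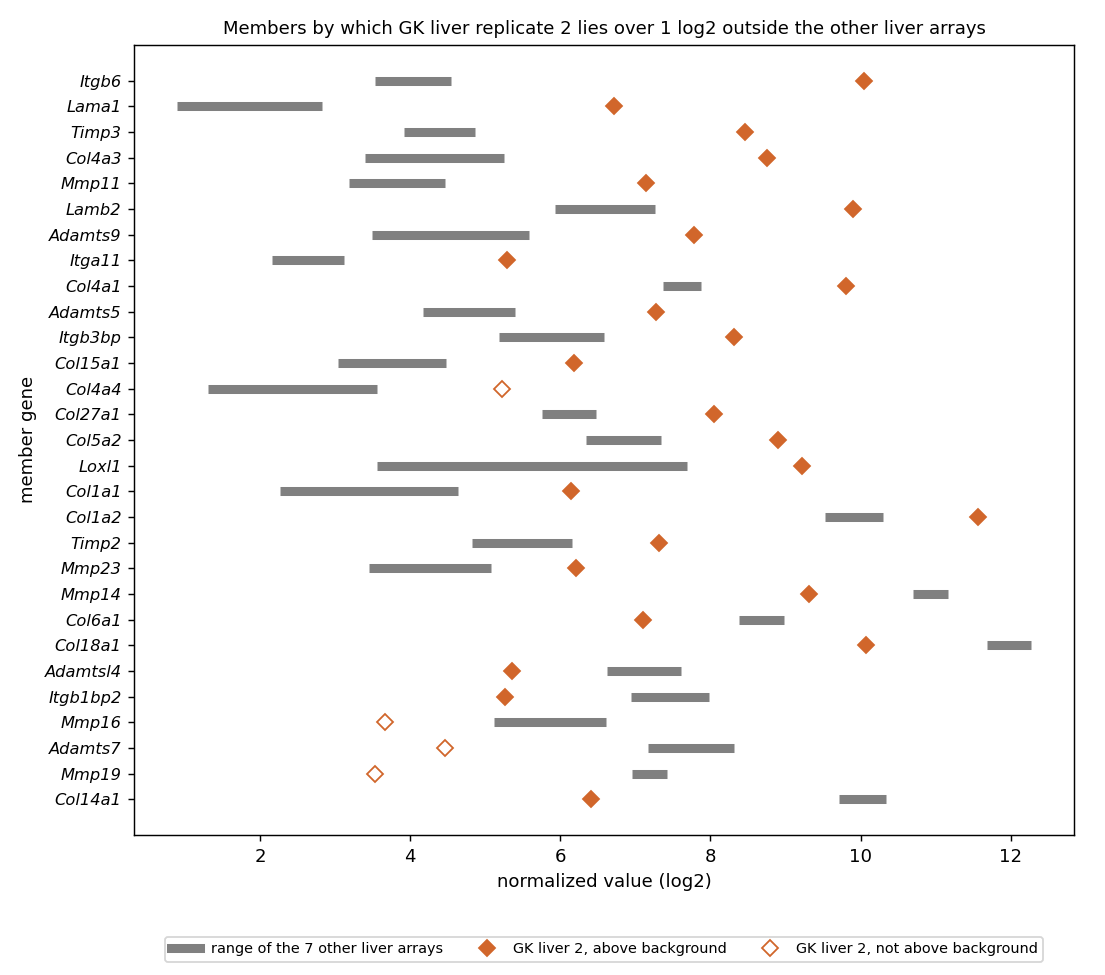
Normalized log2 value on the array labelled GK liver replicate 2 (diamond, filled where above background) beside the range over the other 7 liver arrays (grey bar), for the 29 genes lying more than 1 outside that range. Diamonds lie to the right of the bar for 20 genes, from Itgb6 down, and to the left for 9.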

How the data were processed

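Adipose tissue and liver RNA of BN and GK rats was hybridized to 17 Illumina RatRef-12 arrays on 12 slides. The deposited intensity values are bead-averaged signals from the authors' scanner software, linear and without normalization. The deposited detection score is a fraction per probe and array that, per the file headers, states confidence that the signal exceeds the negative controls, and a score over 0.99 counted as detection. The authors also deposited log2 values per tissue, which they had scaled by vsn, a variance-stabilizing method. The sources describe 4 rats per strain in the protocol, and the counts here follow the 17 arrays. Every column of sample values was used.

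From the intensities, each array's negative control mean was subtracted and 1 vsn model fitted over both tissues (7 iterations, 5 slices, trimming at the 0.9 quantile). It was coded anew (numpy 2.4.6, pandas 2.3.3, scipy 1.17.1, Python 3.11.15). Fitted to each tissue, it lay within 0.00174 of the deposited log2 values. Comparisons used limma 3.58.1 in R 4.3.3 with statmod 1.5.0, on all probes, and were tested on simulated data. Errors are SE from limma or SD. The members, the partner and marker lists and the tests were chosen with earlier results of these data known. BN replicate numbers name the same rat in both tissues, so the tissue fit has the rat as a block (correlation of same-rat deviations -0.03 to 0.07). Across strains numbers name different rats. Named genes are those past the threshold between strains or in the interaction, the 12 largest tissue differences per direction above background throughout the higher tissue, those of the study's listed matrix, focal adhesion and lysyl oxidase entries (Col4a2, Col6a3 and Itga6 were not analysed here), the smallest p of a family with none called, and up to 4 genes per partner list. Other names were chosen after their values were seen. All 92 symbols matched RefSeq by gene ID. The number of arrays, not sequencing depth, limits precision, and nothing says whether rats were litter mates. Alternatives were neqc (offset 16), quantile normalization (normexp offset 50), vsn of each tissue, deposited values, a detection filter, trended and robust variance, slide and replicate blocks, all probes of a gene, and leaving out arrays.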

Additional observations from a re-analysis of the deposited data

Results flagged for a closer look

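For 28 genes, 84 groups of 4 or 5 arrays were searched for an array standing far from the others (the gap to the nearest array, over the group's range, above Dixon's critical value), and chance alone marks about 1 in 20 such groups. Such an array was found in 3 groups. Adamts5 was lowest on BN adipose replicate 1, at 8.85 against 10.89 to 11.21 (gap 0.862 of the range). Lox was lowest on BN liver replicate 1, at 7.25 against 11.01 to 11.61 (0.863). Itga11 was highest on BN liver replicate 4, at 2.93 against 2.15 to 2.26 (0.861), with no value there above background.

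The strain difference differed between the tissues, by limma over all 17 arrays, for Loxl1 (4.05, liver minus adipose tissue, log2), Tgfb2 (1.99) and Adam10 (1.61). Without GK liver replicate 2 that of Loxl1 was 3.45, and no such value is given for Tgfb2 and Adam10. Adam10 was not above background in any group.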

How the results depend on the processing

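Counts of genes past the threshold moved with the processing, and the cause was not tested. In adipose tissue 5 passed, against 13 with the deposited values, with vsn of the tissue alone or with detected probes only, 11 with neqc, 14 with quantile normalization and 12 with trended and robust variance. Calls over all probes moved too, from 589 of 22226 to 1100 (deposited values), 1178 (detected probes, of 7401), 1332 (neqc), 1488 (quantile) and 1162 (trended and robust). There were 3 with 1 fit to all 17 arrays, 1 without GK replicates 1 and 2, and 0 with slide as a fixed block (20 of 22226 probes). Leaving out 1 array gave 3 to 7. In liver 3 passed, against 5 with 1 fit to all 17 arrays and 0 with slide as a fixed block (0 of 22226 probes), and 0 to 3 on leaving out 1 array. Over all probes 149 passed in liver, against 705 with 1 fit to all 17 arrays. Without GK liver replicate 2, 3 passed, against 5 with detected probes only, 6 with neqc or quantile normalization and 8 with trended and robust variance, and 0 to 2 on leaving out 1 array. Calls over all probes without that array also rose, from 272 to 794 (detected probes, of 8205), 866 (neqc), 1041 (quantile) and 884 (trended and robust). A slide block could not be fitted without GK liver replicate 2. For the difference between tissues in the strain difference 1 passed, against 4 (deposited values, detected probes only or neqc), 5 (quantile normalization), 2 (trended and robust variance) and 1 to 4 on leaving out 1 array. Over all probes 236 passed there, against 385 (deposited values), 389 (detected probes, of 9106), 566 (neqc), 541 (quantile) and 288 (trended and robust). The tissue comparison gave 50, with 38 to 54 under the alternatives and 49 with no replicate block. Over all probes it gave 8650, with 9162 for no replicate block, 10239 for the deposited values and 6697 for detected probes (of 8637). With the replicate number as a block, 1 gene passed in adipose tissue, 0 in liver and 0 in liver without GK replicate 2. Over all 22226 probes 194, 0 and 0 passed with that block. Same-numbered rats of the strains are different animals, whose deviations correlated at -0.07 to 0.08 in adipose tissue and 0.02 to 0.08 in liver. No called gene changed sign under an alternative of its own comparison. The Lamb2 liver difference was -1.20 without GK liver replicate 2 and 0.11 with it, and the median over the 92 genes ranged from -0.12 to 0.005 in liver and from -0.05 to 0.07 without that array. Weak probes limit the rest, since 29 genes were above background on no array.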
